A study of Mus musculus with 8 samples.

Results

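The neurexin, neuroligin and cerebellin genes were examined for binding of the transcription factors NFIB, NFIA and NFIX in mouse cerebellar granule neuron progenitors. The set held 9 genes: Nrxn2, Nrxn3, Nlgn1, Nlgn2, Nlgn3, Cbln1, Cbln2, Cbln3 and Cbln4. A ChIP-seq peak was given to one of these genes when it overlapped the gene body, or when its summit lay nearest, within 100 kb, to the transcription start site (TSS) of that gene among all protein-coding TSSs of GENCODE M21 (mm10). These 9 of 21951 protein-coding genes held 94 of the 46070 regions obtained by merging overlapping peaks over the libraries. Regions in which every one of the 6 libraries had a peak are called common below. Of the 94 regions, 14 were common (14.9%, against 13.2% of all regions).

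Peaks were measured in 6 ChIP-seq libraries from granule neuron progenitors of the cerebellum of mice at postnatal day 7, dissociated with papain, with no transgene, deletion or treatment beyond this named in the labels. Each of NfiB, NfiA and NfiX had a library from mice of a mixed background, which the labels liken to the outbred CD1 strain (here Mixed), and a library from CD1 mice. The 2 input samples, a Mixed and a CD1 one, were not analysed here. The labels and the series design text name different antibodies for NfiB, from Novus Biologicals and from Sigma, so the antibody behind the NfiB lists is not settled. Nothing states that libraries came from separate animals, so a spread between libraries may be technical. The cell type named in the labels could not be checked against marker expression, since only binding was measured.

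Neurexins are presynaptic adhesion receptors, and their genes make long and short forms from separate promoters. Neuroligins are their postsynaptic partners: Nlgn1 acts mainly at excitatory synapses, Nlgn2 at inhibitory synapses and Nlgn3 at either kind. Cerebellins are secreted C1q-family proteins that can bridge a neurexin to a postsynaptic receptor, and Cbln1 released by granule neurons acts in this way at synapses between parallel fibres and Purkinje cells. Nuclear factor I proteins bind as dimers to the palindrome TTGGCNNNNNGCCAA, and single arms of it are also bound.

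Peak lists differed in length, with 33283 and 36431 peaks for NfiB Mixed and CD1, 23541 and 16993 for NfiA Mixed and CD1, and 21443 and 7497 for NfiX Mixed and CD1. The short NfiX CD1 list limits how many regions can be common. Read totals were not used, and the median summit of a list held 21 to 28 fragments. A missing peak means that a site did not pass the peak caller at that depth, and does not show that the site was unbound.

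Sequence was at hand for promoters and for regions inside annotated transcripts, and it is shown for those that a peak touched. The stretch before an upstream Nrxn3 start, which had no peak, is shown for comparison. Promoter sequence is from RefSeq on GRCm38.p6, written on the strand of the gene and ending at the base before the transcript start named with it. Of the 9 genes, 5 had an entry in the promoter table, with 8 windows of 300 bases. Capitals mark the NFI motif TTGGCA or its reverse complement TGCCAA, searched on either strand.
Cbln3 start, chr14:55884393-55884506, minus strand: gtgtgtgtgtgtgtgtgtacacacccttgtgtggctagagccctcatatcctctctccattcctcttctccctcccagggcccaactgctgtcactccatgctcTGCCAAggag
Nrxn3 internal start, chr12:89812233-89812482, plus strand: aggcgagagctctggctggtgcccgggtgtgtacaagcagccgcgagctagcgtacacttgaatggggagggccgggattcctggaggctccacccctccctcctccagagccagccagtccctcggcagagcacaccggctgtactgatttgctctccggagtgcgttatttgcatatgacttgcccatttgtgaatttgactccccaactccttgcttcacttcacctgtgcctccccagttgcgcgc
Nrxn3 upstream start, chr12:88794254-88794503, plus strand: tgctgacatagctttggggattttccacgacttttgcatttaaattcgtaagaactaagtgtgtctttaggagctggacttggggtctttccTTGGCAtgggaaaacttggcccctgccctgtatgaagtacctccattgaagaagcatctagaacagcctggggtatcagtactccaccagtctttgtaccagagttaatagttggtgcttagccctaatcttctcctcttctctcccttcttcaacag
The Cbln3 stretch overlapped a peak of NfiB CD1 over its last 32 bases, and its motif began at base 105 of the stretch. The stretch before the internal Nrxn3 start overlapped another NfiB CD1 peak over its last 23 bases and held no TTGGCA. The stretch before the upstream Nrxn3 start held TTGGCA and no peak of any library. That start lies 71.628 kb inside the gene, and whether the stretch acts as a promoter was not tested. No window of the promoter table lay at the Nrxn3 gene start itself. Of the 8 windows, 2 held TTGGCA and 0 held the palindrome, against 14.1% and 0.0365% of 32841 RefSeq promoter windows of the same length.

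Away from promoters, 3 of the 94 regions had their letters inside an annotated GENCODE transcript over the stretch shown. In the site from the common region in the Nrxn3 3′ UTR, capitals mark the NFI arm TTGGC, which overlaps TTGGCA by its 5 letters. In the regions from retained introns of Nrxn3 and Nrxn2, which had peaks of NfiB Mixed and NfiB CD1 alone, capitals mark the E-boxes CAGATG (reverse complement CATCTG) and CAGCTG, a class of motif bound by basic helix-loop-helix factors.
Nrxn3 3′ UTR site, chr12:90332605-90332634, plus strand: caaggttgtagccTTGGCccgaagacagaa
Nrxn3 retained intron, chr12:88850448-88850747, plus strand: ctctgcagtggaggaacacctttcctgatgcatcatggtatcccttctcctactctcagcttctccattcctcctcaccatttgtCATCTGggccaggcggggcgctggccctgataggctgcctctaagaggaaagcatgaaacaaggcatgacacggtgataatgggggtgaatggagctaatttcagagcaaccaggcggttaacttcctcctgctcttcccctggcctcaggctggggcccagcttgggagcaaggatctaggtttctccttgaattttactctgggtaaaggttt
Nrxn2 retained intron, chr19:6465194-6465493, plus strand: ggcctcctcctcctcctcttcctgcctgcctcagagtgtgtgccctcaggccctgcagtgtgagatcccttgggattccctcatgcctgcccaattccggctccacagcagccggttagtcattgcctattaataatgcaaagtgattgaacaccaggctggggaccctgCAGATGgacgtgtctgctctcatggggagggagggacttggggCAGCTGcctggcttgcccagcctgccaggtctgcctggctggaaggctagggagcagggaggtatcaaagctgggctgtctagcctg
The TTGGC of the 3′ UTR site lay 17 to 82 bp from the 6 summits. Neither retained-intron stretch held TTGGCA or TTGGC. The 3′ UTR stretch was centred on its TTGGC, so the presence of the motif there was fixed by that choice. Of the 32841 promoter windows of 300 bases, TTGGC was in 46.7%, CAGCTG in 16.3% and CAGATG in 17.2%.

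Peaks were unevenly divided among the 9 genes. Nrxn3 held 60 of the 94 regions, Nlgn1 13, Cbln4 9 and Nrxn2 6. Nlgn3, Cbln1 and Cbln3 held 2 each, and Nlgn2 and Cbln2 held 0. A common region was found at 4 of the 9 genes, namely Nrxn2, Nrxn3, Nlgn1 and Cbln4. With starts of every biotype in place of protein-coding starts alone, 12 of 85 regions were common (14.1%, against 13.2% of all regions). They lay at 3 genes, without Cbln4, against 10.3% of all genes. Without NfiX CD1, the shortest list, 24 of the 94 regions (25.5%, against 25.3% of all regions) had a peak in each remaining library, at the same 4 genes, and 21.3% of all genes then had such a region. With all 6 libraries 13.2% of protein-coding genes had a common region, and the share rose with gene length, with 7.6% under 50 kb, 29.6% at 50 to 500 kb and 83.5% at 500 kb or more. Nrxn3 and Nlgn1 are in the longest class, where a common region was the rule, and Cbln4 is in the shortest. Counting gene bodies alone, 3 of the 9 genes (Nrxn2, Nrxn3 and Nlgn1) held a common region, against 7.88% of all genes, 2.43% of those under 50 kb, 23.7% at 50 to 500 kb and 82.2% at 500 kb or more.

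A peak of any library was given to 7 of the 9 genes, against 48.6% of all genes, 39.2% of those under 50 kb, 79.4% at 50 to 500 kb and 98.7% at 500 kb or more. By library, 7 of the 9 genes had a peak in NfiB Mixed and 7 in NfiB CD1, against 41.3% and 42.2% of all genes. In NfiA Mixed and NfiA CD1 the count was 5 each, against 34% and 26.3%. In NfiX Mixed it was 5 and in NfiX CD1 4, against 31% and 15.4%.

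**Figure D1:**
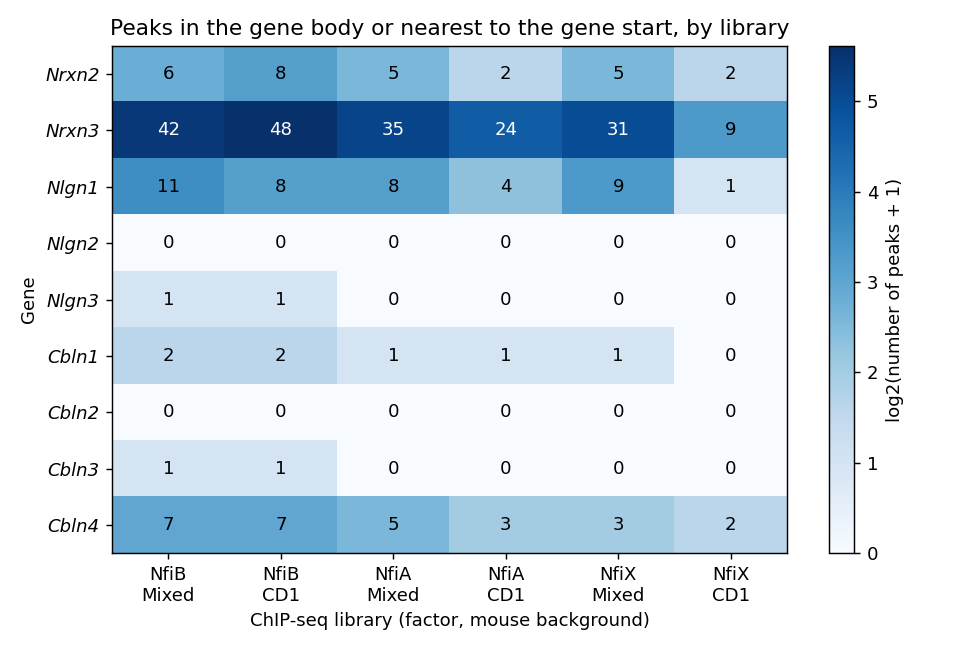
Number of peaks given to each gene (rows) in each ChIP-seq library (columns), with colour on a log2(number + 1) scale. Nrxn3 held 9 to 48 peaks per library, while Nlgn2 and Cbln2 held 0 in every library.

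Set against list length, the genes took 18.7 to 22.9 peaks per 10000 of each list. They held 21.0 peaks per 10000 in NfiB Mixed (95% Wilson interval 16.7 to 26.6), 20.6 in NfiB CD1 (16.4 to 25.8), 22.9 in NfiA Mixed (17.6 to 29.9), 20 in NfiA CD1 (14.3 to 27.9), 22.9 in NfiX Mixed (17.3 to 30.2) and 18.7 in NfiX CD1 (11.1 to 31.3). All 6 intervals overlap, and they cover counting error only. The median member peak stood at the 50.9th to 64.0th percentile of fold enrichment within its own list, where fold enrichment, as given by the authors, compares fragments at the summit with the local background, with 1 added to each.

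Nrxn3, the longest gene of the set, had 42 and 48 peaks in NfiB Mixed and CD1, 35 and 24 in NfiA Mixed and CD1, and 31 and 9 in NfiX Mixed and CD1. The gene (ENSMUSG00000066392.11) spans 1612.06 kb at chr12:88722876-90334935 on the plus strand. It averaged 1.95 gene-body peaks per 100 kb over the 6 libraries, against a median of 1.07 for the 230 genes of 500 kb or more, which put it at the 83.0th percentile of that class. All 60 of its regions lay in the gene body, and 9 (15.0%) were common, against 13.2% of all 46070 regions.

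The strongest common regions of Nrxn3 were intronic and far from any start site. The region at chr12:90113252-90113981, 1390.83 kb into the gene, had folds of 20.4 and 24.7 in NfiB Mixed and CD1, 14.0 and 12.7 in NfiA Mixed and CD1, and 16.3 and 10.6 in NfiX Mixed and CD1. Its summits held 37 fragments in NfiX CD1 to 118 in NfiB CD1, and its mean percentile was 96.3. The region at chr12:90141845-90142435 had folds of 17.7 and 21.3 in NfiB Mixed and CD1, 15.5 and 13.2 in NfiA Mixed and CD1, and 13.6 and 11.2 in NfiX Mixed and CD1. NfiB was the higher factor at these sites on either background, and folds of different lists are not on a common scale.

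A further region at chr12:89049188-89049917, 326.585 kb into the gene, had folds of 12.6 and 17.5 in NfiB Mixed and CD1, 12.4 and 15.7 in NfiA Mixed and CD1, and 12.0 and 10.1 in NfiX Mixed and CD1. Here the CD1 fold was above the Mixed fold for NfiB and NfiA and below it for NfiX. The remaining 6 common regions of Nrxn3 had mean percentiles of 54.1 to 90.3. The lowest of these was the region in the 3′ UTR at chr12:90332520-90332838, with folds of 8.15 and 6.50 in NfiB Mixed and CD1, 5.59 and 6.38 in NfiA Mixed and CD1, and 4.30 and 6.50 in NfiX Mixed and CD1. Its NfiX Mixed summit held 11 fragments.

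The density of regions was compared, without a test, before and after the start of the short form of Nrxn3. The short form starts at chr12:89812483, where the longest coding length is 1701 bp, against 4713 bp from the upstream coding start at chr12:88794504. After the internal start, 522.453 kb held 26 regions (4.98 per 100 kb), of which 5 were common (0.957 per 100 kb). Before it, 1089.61 kb held 34 regions (3.12 per 100 kb), of which 4 were common (0.367 per 100 kb). At the internal start itself there was a peak of NfiB CD1 alone, 86 bp from the start, with a fold of 2.92 at the 4.08th percentile of its list. A stronger region, with a peak in every library but NfiX CD1, lay 5.92 kb after that start and had folds of 6.70 to 11.9.

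**Figure D2:**
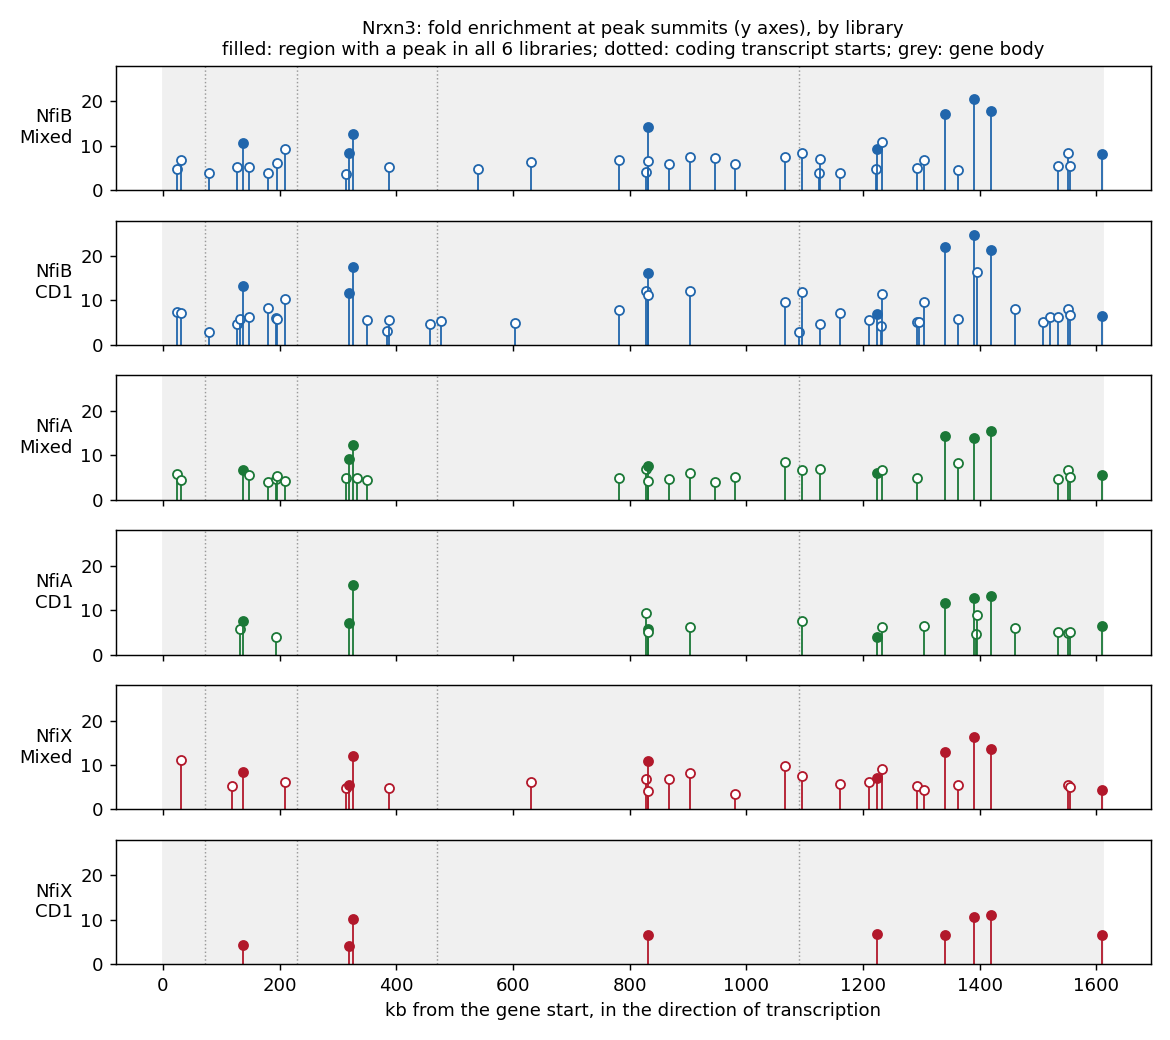
Fold enrichment at each peak summit along Nrxn3 in the 6 libraries, against the distance from the gene start in kb. Filled points are the 9 common regions, dotted lines the coding starts and grey the gene body. The tallest common peaks stand between 1340.71 and 1419.27 kb in every library but NfiA CD1.

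Nrxn2 (ENSMUSG00000033768.17, chr19:6418731-6544169, plus strand, 125.439 kb) had 6 and 8 peaks in NfiB Mixed and CD1, 5 and 2 in NfiA Mixed and CD1, and 5 and 2 in NfiX Mixed and CD1. Its 3.72 gene-body peaks per 100 kb put it at the 94.7th percentile of the 4777 genes of 50 to 500 kb, whose median was 0.650. Both of its common regions were intronic. The region at chr19:6504173-6504684 lay 6.62 kb after the internal start of the short form, with folds of 7.51 and 11.7 in NfiB Mixed and CD1, 7.95 and 9.38 in NfiA Mixed and CD1, and 11.1 and 7.57 in NfiX Mixed and CD1.

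The other Nrxn2 region, at chr19:6453260-6453804, ranked higher by significance than by fold. Its folds were 6.52 and 7.67 in NfiB Mixed and CD1, 4.78 and 4.83 in NfiA Mixed and CD1, and 4.30 and 3.14 in NfiX Mixed and CD1, a mean percentile of 35.4. The local background there, 8.56 to 15.1 fragments, was at the 97.1st percentile or above in each list, and the NfiB CD1 summit held 122 fragments. Ranked by −log10 p, the same peaks stood at the 12.7th percentile in NfiX CD1 and the 66.2nd to 93.6th percentile in the other 5 libraries.

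Among the neuroligins, Nlgn1 alone had a common region. Nlgn1 (ENSMUSG00000063887.13, chr3:25426215-26332460, minus strand, 906.246 kb) had 11 and 8 peaks in NfiB Mixed and CD1, 8 and 4 in NfiA Mixed and CD1, and 9 and 1 in NfiX Mixed and CD1. Its 0.754 gene-body peaks per 100 kb were below the median of 1.07 for genes of 500 kb or more, at the 38.3rd percentile.

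The common region of Nlgn1, in an intron at chr3:25656706-25657514 and 476.467 kb after the nearest Nlgn1 start, had folds of 9.73 and 16.0 in NfiB Mixed and CD1, 10.5 and 5.97 in NfiA Mixed and CD1, and 12.1 and 6.14 in NfiX Mixed and CD1. Mixed was the higher background for NfiA and NfiX and CD1 for NfiB. A further 3 of the 13 regions lacked a peak of NfiX CD1 alone (23.1%, against 12.1% of all regions), and at 1 of them, chr3:26117000-26117417, the folds were 10.4 and 15.8 in NfiB Mixed and CD1, 7.38 and 5.98 in NfiA Mixed and CD1, and 8.43 in NfiX Mixed. Of the 13 regions, 5 had peaks of Mixed libraries alone and 0 of CD1 libraries alone. For all regions these shares were 19.3% and 19.1%.

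Nlgn3 (ENSMUSG00000031302.16, chrX:101299168-101325963, plus strand) had 1 peak in NfiB Mixed, 1 in NfiB CD1 and 0 in the NfiA and NfiX libraries, and the 2 peaks lay at different places. The intronic peak of NfiB Mixed, at chrX:101312647-101312834, had a fold of 3.97 on 9 fragments. The peak of NfiB CD1 lay 6.79 kb beyond the gene, with a fold of 3.36 on 24 fragments. Nlgn2 (ENSMUSG00000051790.15, chr11:69823122-69837784, minus strand) had 0 peaks in all 6 libraries. The nearest peaks to Nlgn2 were 10.4 to 10.5 kb away in 5 libraries, with Plscr3 as the gene of the nearest start, and 116.148 kb away in NfiX CD1.

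Of the cerebellins, Cbln4, a secreted ligand of neurexins and of the receptor Dcc, was the gene with the most peaks. Cbln4 (ENSMUSG00000067578.3, chr2:172036233-172043466, minus strand, 7.234 kb) had 7 and 7 peaks in NfiB Mixed and CD1, 5 and 3 in NfiA Mixed and CD1, and 3 and 2 in NfiX Mixed and CD1. Of its 9 regions, 7 lay outside the gene, and both common regions were among these. A common region was given to 7.6% of genes under 50 kb.

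The region at chr2:172053832-172054584, 10.7 kb upstream of the Cbln4 start, had the highest mean percentile of the 14 common regions, 96.7. Its folds were 24.7 and 23.1 in NfiB Mixed and CD1, 16.7 and 13.1 in NfiA Mixed and CD1, and 19.3 and 10.1 in NfiX Mixed and CD1. Each factor had its higher fold in the Mixed library here. The 6 summits lay within 43 bp of one another and held between 40 fragments (NfiX CD1) and 132 (NfiB Mixed).

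The other common region of Cbln4, at chr2:172005888-172006343 and 37.3 kb from the start on the downstream side, had folds of 13.7 and 15.2 in NfiB Mixed and CD1, 9.89 and 10.9 in NfiA Mixed and CD1, and 8.91 and 8.15 in NfiX Mixed and CD1. Its mean percentile was 88.3. Within the gene, an intronic region 3.67 kb after the start had folds of 5.43 and 7.10 in NfiB Mixed and CD1, 6.23 in NfiA Mixed and 6.13 in NfiX Mixed, with no peak in NfiA CD1 or NfiX CD1. A nearest start names a neighbour and not a regulated gene, so the link of the outer regions to Cbln4 rests on position. Both common regions were no longer given to Cbln4 when starts of genes of every biotype were counted.

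**Figure D3:**
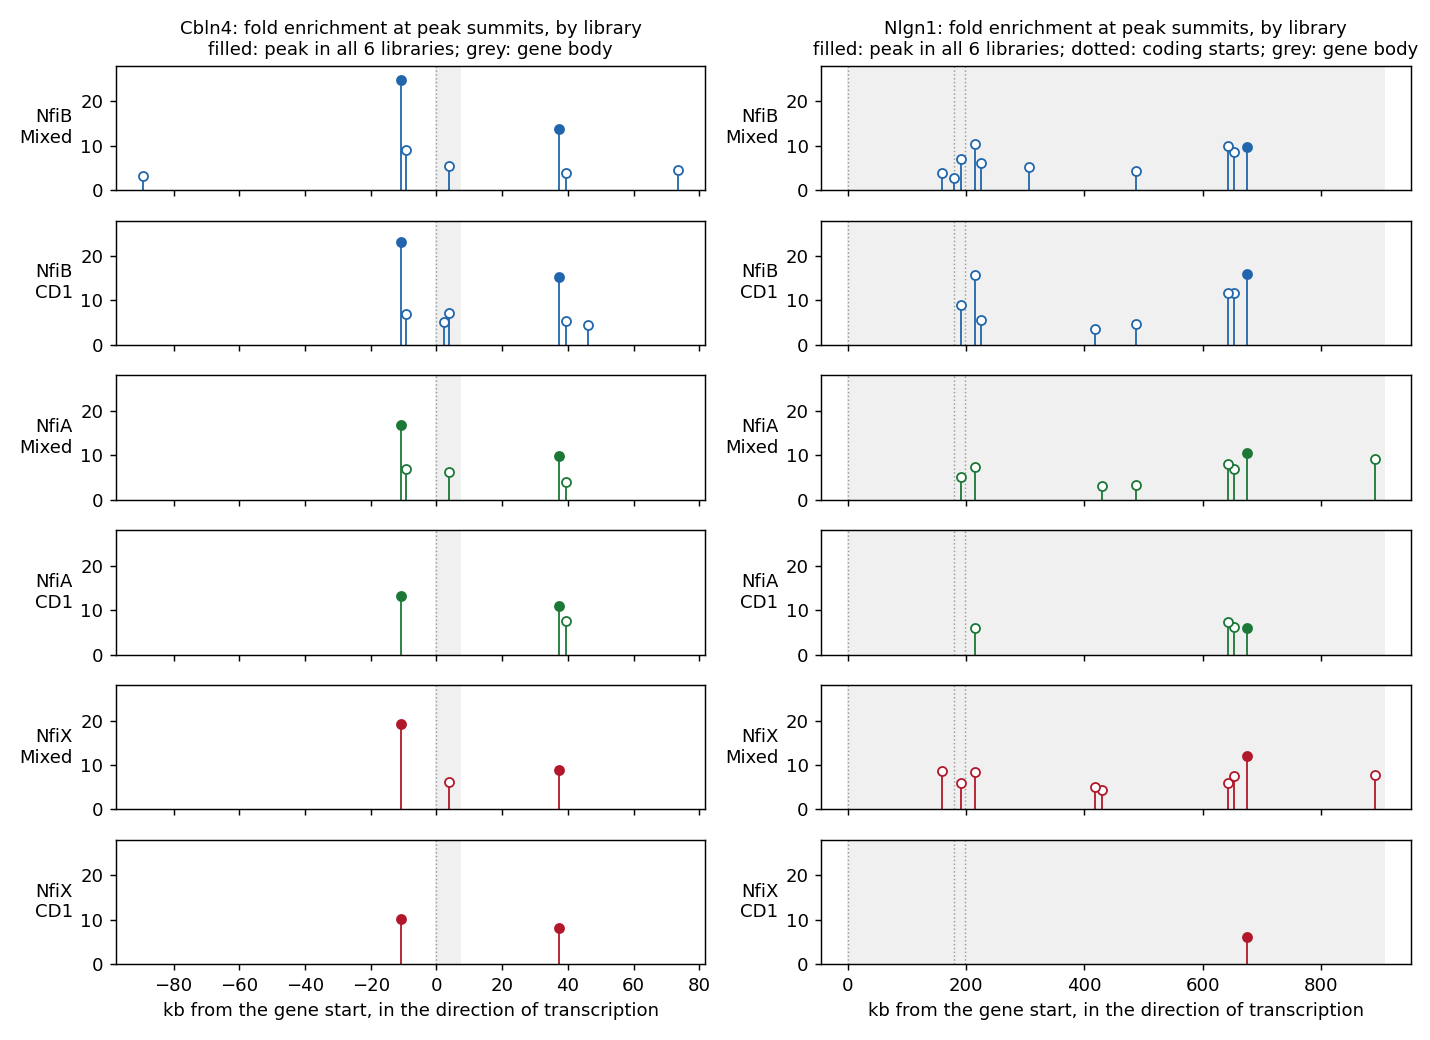
Fold enrichment at each peak summit around Cbln4 (left) and along Nlgn1 (right) in the 6 libraries, against the distance from the gene start in kb. Filled points are common regions and grey is the gene body. Both filled Cbln4 points lie outside the gene, at -10.7 and 37.3 kb, and the NfiX CD1 panel of Nlgn1 holds 1 peak.

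Cbln1, a ligand released by granule neurons, had no common region. Cbln1 (ENSMUSG00000031654.16, chr8:87468405-87472609, minus strand) had 2 and 2 peaks in NfiB Mixed and CD1, 1 and 1 in NfiA Mixed and CD1, and 1 and 0 in NfiX Mixed and CD1. The region at chr8:87475596-87475910, at -3.13 kb from the start, had folds of 8.62 and 5.87 in NfiB Mixed and CD1 and 3.86 and 4.05 in NfiA Mixed and CD1, with no peak of NfiX. An intronic region at chr8:87470573-87470952 had folds of 3.88 and 3.34 in NfiB Mixed and CD1 and 3.22 in NfiX Mixed.

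Cbln3, a cerebellin of granule neurons that assembles with Cbln1, had 1 peak in NfiB Mixed, 1 in NfiB CD1 and 0 in the other 4 libraries. Cbln3 (ENSMUSG00000040380.14) lies at chr14:55878913-55884392 on the minus strand. The NfiB CD1 peak at chr14:55884236-55884424 had its summit 37 bp inside the start, with a fold of 3.16 on 24 fragments, at the 6.03rd percentile of its list. This is the peak whose upstream end holds the TGCCAA printed above. The NfiB Mixed peak lay 10.3 kb after that start, with a fold of 2.89. Cbln2 (ENSMUSG00000024647.14, chromosome 18, plus strand) had 0 peaks in the 6 libraries, and its nearest peaks were 189 to 295 kb away, with Neto1 as the gene of the nearest start.

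Regions at these genes lay mostly in introns, as the choice of regions favours, since every gene-body peak was taken and 60 of the 94 regions are in Nrxn3. By median summit, 79 of the 94 regions were in introns, 10 outside the gene, 2 in a 5′ UTR, 2 in an exon of a retained-intron transcript and 1 in a 3′ UTR. Within 1 kb of a start of their own gene there were 3 regions, at Nrxn3, Nlgn1 and Cbln3. Each of these was in 1 library and none was common. No matching counts over all regions of the series are given here, so these counts do not set the genes apart. The median distance to the nearest own start was 114.826 kb for the 14 common regions and 82.7 kb for all 94.

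Regions shared by more libraries held stronger peaks. In common regions the median peak stood at the 88.1st percentile of fold within its list, against 50.8 in regions of 2 to 5 libraries and 28.4 in regions of 1 library. Over all peaks of the series the same medians were 81.4, 43.8 and 25.1, in the same order. A peak of NfiB was present in 88 of the 94 regions (93.6%, against 92.9% of all regions). Peaks of NfiB libraries alone made up 27 regions (28.7%, against 35.7%), and 26 regions were in 1 library (27.7%, against 31.9%).

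**Figure D4:**
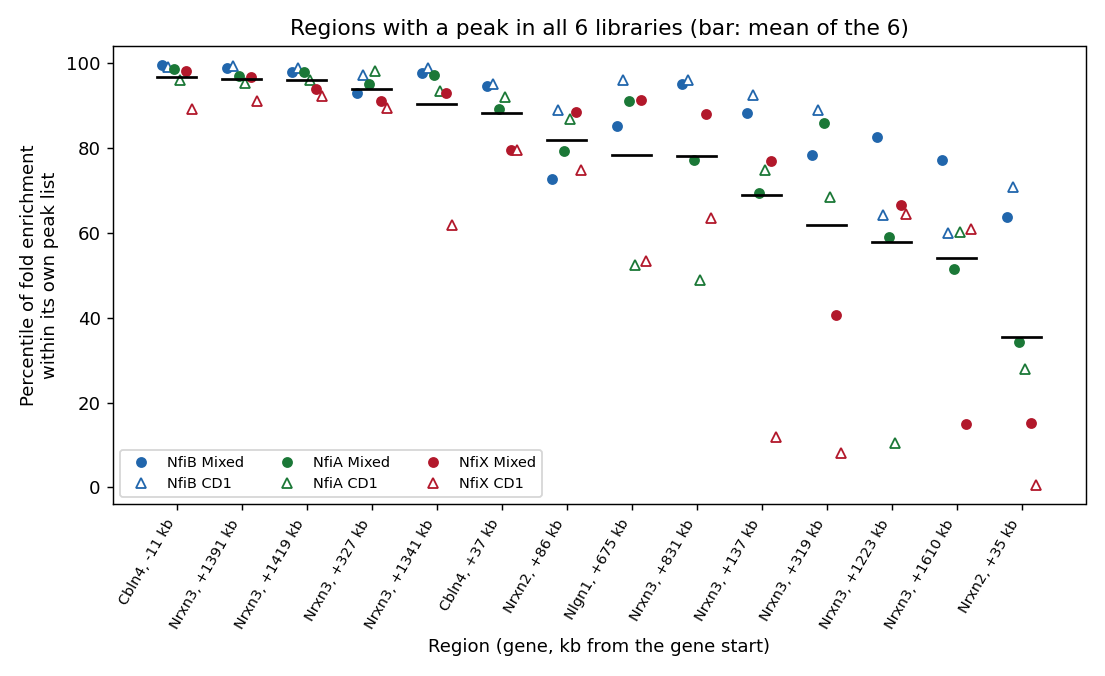
Percentile of fold enrichment within its own peak list (y axis) for the 14 common regions, in order of their mean over 6 libraries (bar). Circles are Mixed and triangles CD1 libraries. Mean percentiles run from 96.7 at Cbln4 to 35.4 at Nrxn2.

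Backgrounds and factors were compared by the peaks in the gene body per 10000 peaks of the list, for the genes with enough peaks. Nlgn1 had 3.30 in NfiB Mixed against 2.2 in NfiB CD1, 3.40 in NfiA Mixed against 2.35 in NfiA CD1, and 4.20 in NfiX Mixed against 1.33 in NfiX CD1. The Mixed libraries averaged 3.63 and the CD1 libraries 1.96, a difference of 1.67 ± 1.03 (SD over 3 factors), higher in 3 of 3. With only the 7497 most significant peaks of each list it was 0.44 (exact permutation p = 1). On the full lists the exact two-sided sign-flip permutation test gave p = 0.25, the smallest that 3 pairs allow, so the design cannot reach 0.05. Every Mixed rate was above every CD1 rate, which was also so for 6.41% of the 515 genes with a mean of at least 5 gene-body peaks. The lowest CD1 rate rests on 1 peak in NfiX CD1.

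For Nrxn3 the rates were 12.6 in NfiB Mixed against 13.2 in NfiB CD1, 14.9 in NfiA Mixed against 14.1 in NfiA CD1, and 14.5 in NfiX Mixed against 12.0 in NfiX CD1. The mean was 13.98 in Mixed and 13.1 in CD1 libraries, a difference of 0.88 ± 1.51 (SD over 3 factors, exact sign-flip permutation p = 0.5), smaller than its spread. With only the 7497 most significant peaks of each list it turned to -3.56, and with a minimum −log10 q of 5 per peak to -0.35.

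NfiB libraries averaged 12.9 Nrxn3 peaks per 10000, against 13.9 in the 4 NfiA and NfiX libraries, a difference of -0.97 (exact two-sided permutation p = 0.4, smallest possible 0.133). For Nlgn1 the means were 2.75 for NfiB and 2.82 for NfiA and NfiX, a difference of -0.07 (exact permutation p = 0.8). Neither difference stood out from the spread of the libraries. With a minimum −log10 q of 5 per peak the Nrxn3 value was 0.75, and with lists of 7497 peaks the values were 0 for Nrxn3 and 2.00 for Nlgn1. The Nlgn1 value changed sign without NfiA Mixed (0.12), without NfiB CD1 (0.48) and without NfiX Mixed (0.39).

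Of 61 other synaptic organiser genes, taken from 4 lists of partners, 28 (45.9%) held a common region, against 13.2% of all genes. These genes were long, with a median of 83.2 kb against 17.4 kb for all genes. Of the 16 with 500 kb or more, 13 had a common region, against 192 of 230 such genes (83.5%). Among all genes the share was 7.6% under 50 kb and 29.6% at 50 to 500 kb. The organiser genes of these shorter lengths were not set against them, and whether length accounts for the 45.9% was not tested. By list, the counts were 6 of 15 partners of neurexins and neuroligins, 6 of 11 partners of cerebellins and C1q-like proteins, 7 of 18 LAR-type receptor phosphatases and their ligands, and 9 of 17 intracellular scaffolds.

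Among neurexin and neuroligin partners, the calsyntenin gene Clstn2 had 8 common regions, and Mdga1, whose product binds neuroligins, and Nxph1, which encodes the neurexin ligand neurexophilin, had 3 each. Among cerebellin partners, Dcc and Adgrb3, a receptor of C1q-like proteins, had 2 each. Ptprd, which encodes a LAR-type phosphatase, and Ntrk3, which encodes the receptor TrkC, had 4 each, and the netrin-G gene Ntng1 had 2. Among scaffolds, the PSD-95 family gene Dlg2 had 7, and Dlgap2 and Dlgap1, which encode partners of that family, 4 and 2. Ties within a list were settled by peaks over all libraries, so an unnamed gene can have as many common regions as a named one.

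The genes with gene-body counts most like those of Nrxn3, by the sum of absolute differences over the 6 libraries, were Macrod2 (sum 16), Lsamp (17) and Ntm (17). Lsamp and Ntm encode neuronal adhesion proteins of the IgLON family, and all 3 genes are long, with 968.392 to 2197.32 kb. For Nlgn1 the closest were Grin2a (sum 3), App (4) and Cacna1d (5), of 224.082 to 451.517 kb. Nlgn1 is longer than each of them.

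**Figure D5:**
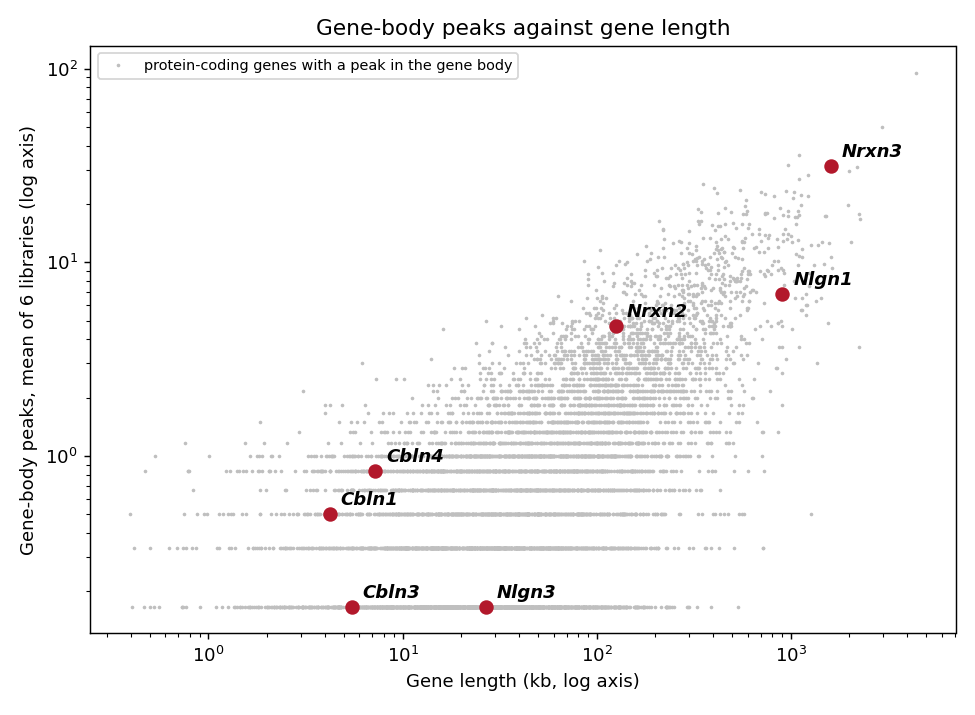
Mean number of gene-body peaks over 6 libraries (y axis) against gene length in kb (x axis), both on log axes, for protein-coding genes with a gene-body peak (grey) and the named genes (red). Nrxn3 at 1612.06 kb stands near the top. Nlgn1 at 906.246 kb was at the 38.3rd percentile of genes of 500 kb or more in gene-body peaks per 100 kb. Nlgn2 and Cbln2 are not drawn because their counts are 0.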

How the data were processed

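The submitters' processing notes name Bowtie2 2.2.6, SAMtools 1.4.1, MACS2 2.1.0 and the mm10 build. For read filters, the calling threshold and any use of the inputs as controls, the sources used here give nothing. There was 1 deposited list for each library, called by the authors on that library. The authors' values for a peak are its fold enrichment (a ratio), its p on the −log10 scale and its q on the −log10 scale, beside a deposited integer score that was not used. The highest q-value of a list, from the deposited −log10 q, was 0.0411 to 0.0492. These values described or ranked peaks within a list.

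Peaks that overlapped by 1 bp or more were merged over the 6 lists. Fragments at a summit and the local background were recovered as the whole number and Poisson rate that return a peak's fold and p-value, within 0.002 on the −log10 p scale, for 100% of peaks. The 296 peaks given to the genes made 290 pairs of a region and a library, each represented by its highest fold. Groups were compared by exact permutation of peaks per 10000, with Mixed and CD1 paired by factor. All 9 genes are named, with up to 3 common regions each by mean percentile, the 3 genes of each partner list with most common regions, and the 3 genes most alike to a member with a mean of 5 or more gene-body peaks. A gene that this rule names is not reported here. The scripts were tested on simulated data. Python 3.11.15, NumPy 2.4.6, SciPy 1.17.1 and matplotlib 3.10.9 were used. The genes, partner lists and tests were chosen with earlier results of these data known.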

Additional observations from a re-analysis of the deposited data

How the results depend on the processing

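No read totals were used, so depth could be judged only from fragments at summits, and a list of 7497 peaks bounds what can be common. Of 40 values that leave out no library, 32 kept their direction or stayed within 1.5 times, and the cause of the others was not tested. With a minimum −log10 q of 5 per peak, the genes had 9 common regions among 80 (11.2%, against 13.1% of all regions) in place of 14, and Nrxn3 peaks per 10000 gave -0.35 for Mixed against CD1 and 0.75 for NfiB against NfiA and NfiX. With the 7497 most significant peaks of each list, there were 27 regions, 8 of them common (29.6%, against 25.6% of all regions), and the differences for Mixed against CD1 and for NfiB against NfiA and NfiX were -3.56 and 0 at Nrxn3 and 0.44 and 2.00 at Nlgn1. The same 4 genes had a common region under either setting, against 11.7% and 8.11% of all genes. With starts of every biotype, or gene bodies alone, Cbln4 had none, which left 3 genes, against 10.3% and 7.88% of all genes. The 12 common regions were then among 85 and 84 regions (14.1% and 14.3%, against 13.2% of all regions). Leaving out each library in turn gave 83 to 94 regions, 14 to 24 common regions (24 without NfiX CD1, 25.5% against 25.3% of all regions), 4 genes with a common region each time, and 28 to 37 of the organiser genes (37 without NfiX CD1, when the share of all genes was 21.3%). For Mixed against CD1 the range was 0.09 to 1.60 at Nrxn3 and 1.08 to 1.99 at Nlgn1. For NfiB against NfiA and NfiX it was -1.59 to -0.63 at Nrxn3 and -0.62 to 0.48 at Nlgn1, with values above 0 of 0.12, 0.48 and 0.39 without NfiA Mixed, NfiB CD1 and NfiX Mixed.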
